A study of Mus musculus with 6 samples.

Results

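The metallothionein and zinc-handling genes described here were chosen by name from the deposited FPKM table, which holds 55573 genes: Mt1, Mt2, Mtf1, Slc30a1, Slc30a10 and Slc39a4, 6 genes in all, each with 1 row. FPKM are fragment counts scaled to gene length and library size. The table covers polyA RNA of mouse liver in 6 libraries, 3 labelled p21TKO (p21-/-mTR-/-Wrn-/-) and 3 labelled DKO (mTR-/-Wrn-/-), all of generation 3 and from animals on normal feed. The p21TKO animals are described as already progeroid when sampled. Both groups lack Wrn, the gene of a RecQ helicase, and mTR, the telomerase RNA gene. In p21TKO mice p21 is deleted as well (Cdkn1a, a cyclin-dependent kinase inhibitor), and the study asked which pathways differ after its loss. The deletions are written as whole-animal genotypes, with no tissue-specific driver, and the sample titles carry the code 2M, which the labels do not explain, so no age is given here. Whether replicates are separate animals is not in the labels, so each p-value reflects only how far these libraries spread, which may be technical.

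Metallothioneins are small, cysteine-rich proteins that bind zinc, copper and cadmium. In liver, Mt1 and Mt2 are known to be induced by metals, glucocorticoids, cytokines of the acute phase and oxidative stress. MTF1 is the zinc-sensing transcription factor that binds metal response elements (MREs) in their promoters. ZnT proteins (Slc30 genes) move metal out of the cytosol, and ZIP proteins (Slc39 genes) move it in.

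Mt1 and Mt2 are neighbours on chromosome 8, and the regions around their RefSeq start sites are shown because both genes had similar profiles across the libraries and are textbook MTF1 targets. Each sequence is the plus strand of build GRCm38.p6 from RefSeq, from 250 bases before the start to 30 bases after it. Capitals mark the MRE core, spelled TGCACNC or TGCGCNC and searched on both strands. The Mt1 window is chr8:94178839-94179118 and the Mt2 window is chr8:94172368-94172647.
Mt1: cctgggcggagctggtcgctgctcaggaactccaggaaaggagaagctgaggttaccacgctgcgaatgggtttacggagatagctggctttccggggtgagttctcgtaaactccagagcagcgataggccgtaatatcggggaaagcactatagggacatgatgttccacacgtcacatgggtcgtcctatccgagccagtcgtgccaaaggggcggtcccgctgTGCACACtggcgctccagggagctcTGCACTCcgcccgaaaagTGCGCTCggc
Mt2: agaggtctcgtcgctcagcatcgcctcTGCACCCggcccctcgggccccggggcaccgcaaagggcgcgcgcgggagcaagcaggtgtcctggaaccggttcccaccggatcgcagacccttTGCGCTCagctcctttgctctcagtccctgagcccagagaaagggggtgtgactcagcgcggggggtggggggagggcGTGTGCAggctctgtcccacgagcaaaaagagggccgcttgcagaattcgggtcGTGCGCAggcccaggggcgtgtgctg
The Mt1 window held 3 MRE cores, of which 2 lay after the RefSeq start, and the Mt2 window held 4. Of 32807 windows of the same kind, 24.1% held at least 1 core and 6.37% held at least 2. The Mt2 window also held 1 antioxidant response element core (TGACNNNGC, either strand), which 11.5% of windows held, and this match overlapped no MRE core. Neither window held an E-box (CACGTG) or a STAT site (TTCNNNGAA). Windows were also matched for Slc30a10 with 3 cores, of which 2 overlapped on opposite strands, for Slc30a1 with 1 core and for Mtf1 with none. A match is a description of these letters and not a site in use. The windows rest on the RefSeq start taken for each gene, and bases beyond them were not searched. The counts and absences are therefore those of the windows and not of whole promoters.

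The FPKM denominators corresponded to 19363284 to 27061290 reads in the p21TKO libraries and 21516838 to 24027504 reads in the DKO libraries. Cdkn1a stood at 1.41, 11.0 and 6.50 FPKM in p21TKO replicates 1 to 3, against 0.761, 1.79 and 0.405 FPKM in DKO replicates 1 to 3. It was thus not lower in the libraries labelled p21TKO, and every direction below rests on those labels. The deleted part of Cdkn1a, and whether it was counted, are not stated in the labels. Ddx3y, a Y-linked RNA helicase gene, was above 0 in p21TKO replicate 1 and in DKO replicates 2 and 3 and at 0 in the other 3 libraries, so each group mixes both kinds. The first principal component of the 9538 tested genes held 57.2% of the variance. It set p21TKO replicates 2 and 3 (44.4 and 56.6) apart from p21TKO replicate 1 and the DKO libraries (-34.6 to -7.73). The 8 hepatocyte markers examined were all measured, with albumin (Alb) at 27220 to 37503 FPKM in p21TKO and 24412 to 26666 FPKM in DKO. Of the 8, 4 had higher and 4 lower values in p21TKO, with a median log2 difference of 0.067. The groups did not overlap for 4 of them (3 higher, 1 lower), beside 15.4% of tested genes.

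No member differed between the genotypes beyond the spread of the libraries. Of the 6 members, 5 reached the filter of a mean of 1 FPKM and were tested with limma on log2(FPKM + 1) together with all other genes. Of these 5, 0 were called at a Benjamini-Hochberg adjusted p under 0.05, where 0.0734% of all tested genes were called, 0.0315% higher and 0.0419% lower in p21TKO. At an unadjusted p under 0.05, limma picked 0 of the 5 and voom on recovered reads also 0 of the 5, where limma picked 9.38% of all tested genes. Slc39a4 was the 1 member of 6 whose groups did not overlap, where 15.4% of tested genes had groups that did not overlap, 6.93% higher and 8.49% lower in p21TKO. Ordered by mean over all libraries, the levels per length ran from Mt1 at 1571 FPKM and Mt2 at 49.9 FPKM to Slc39a4 at 14.3, Slc30a10 at 2.52, Mtf1 at 1.57 and Slc30a1 at 0.239 FPKM. Mt2 lay below Slc39a4 in p21TKO replicate 1 and DKO replicate 3, so the order of those neighbours did not hold in every library.

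**Figure D1:**
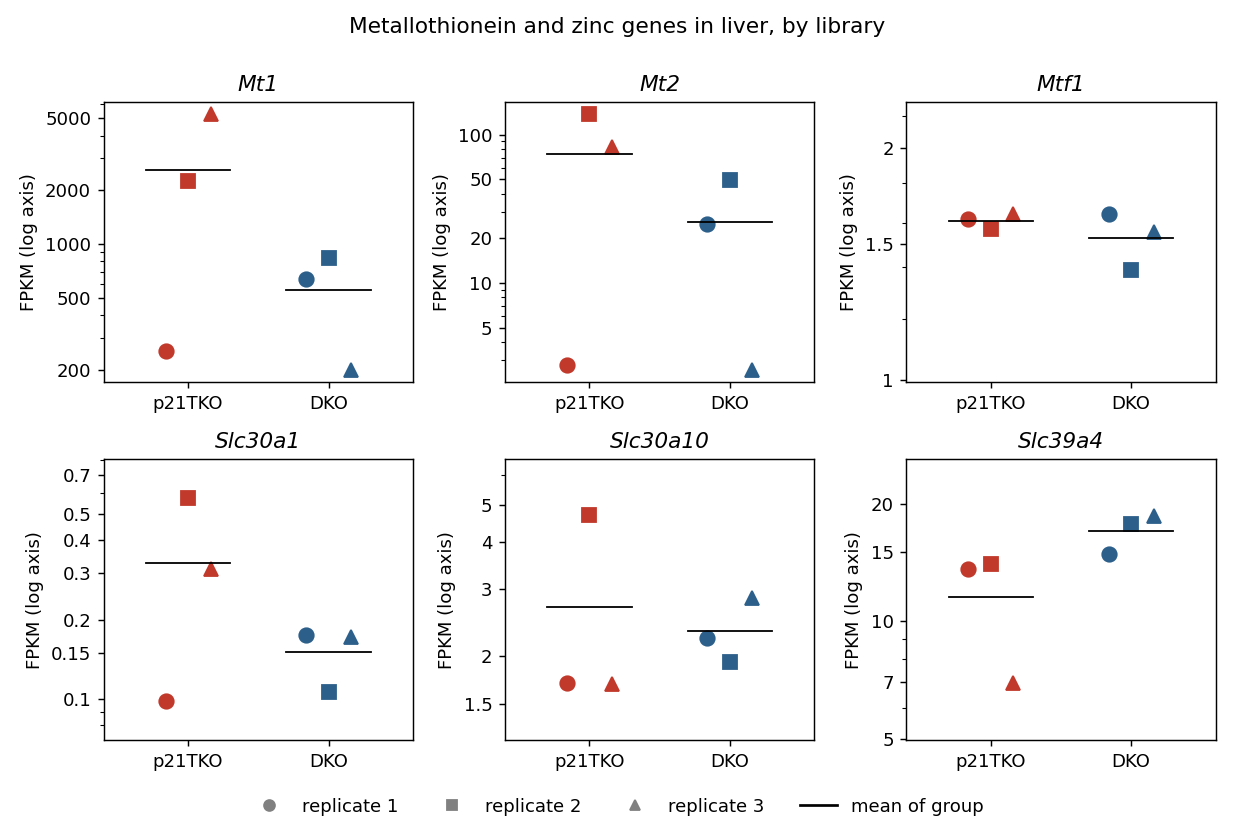
FPKM of the 6 member genes on log axes, 1 point per library with the marker shape giving the replicate, p21TKO in red and DKO in blue, and a line at each group's mean. Mt1 spans 200 to 5269 FPKM and Mt2 spans 2.60 to 137 FPKM, with the lowest values in p21TKO replicate 1 and DKO replicate 3, while Mtf1 stays between 1.39 and 1.64 FPKM.

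Mt1 (ENSMUSG00000031765, chromosome 8, 94179082 to 94180327, GRCm38) was among the most abundant transcripts of some libraries. It stood at 255, 2229 and 5269 FPKM in p21TKO replicates 1 to 3, against 635, 837 and 200 FPKM in DKO replicates 1 to 3. p21TKO replicates 2 and 3 were the highest of the 6 libraries, while p21TKO replicate 1 lay below DKO replicates 1 and 2, so the groups overlapped. These values came from 6148, 63752 and 177653 reads in p21TKO and 19015, 22429 and 5531 reads in DKO, so counting error is small beside the spread. Ranked by FPKM, Mt1 held places 214, 30 and 14 of all genes in p21TKO replicates 1 to 3, and places 71, 68 and 229 in DKO replicates 1 to 3. The means were 2584 ± 2526 FPKM in p21TKO and 557 ± 326 FPKM in DKO (SD, n = 3 each). The log2 difference was 1.604 (SE 1.15, 95% interval -1.13 to 4.34, limma adjusted p = 0.634). Without p21TKO replicate 1 it was 2.85 (limma adjusted p = 0.0721), and without p21TKO replicate 3 it was 0.67 (limma adjusted p = 0.979).

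Mt2 (ENSMUSG00000031762, chromosome 8, 94172664 to 94173568) separated the libraries in much the same way at a lower level. It stood at 2.81, 137 and 83.0 FPKM in p21TKO replicates 1 to 3, against 25.0, 49.2 and 2.60 FPKM in DKO replicates 1 to 3. p21TKO replicate 1 and DKO replicate 3 were almost equal and far below the other 4 libraries, so the groups overlapped. The read counts were 32, 1850 and 1320 in p21TKO and 353, 623 and 34 in DKO. The means were 74.3 ± 67.5 FPKM in p21TKO and 25.6 ± 23.3 FPKM in DKO (SD, n = 3 each), a log2 difference of 1.08 (SE 1.54, 95% interval -2.60 to 4.75, limma adjusted p = 0.814). Without p21TKO replicate 1 the difference was 2.68 (limma adjusted p = 0.187). Without p21TKO replicates 2 or 3 it was 0.094 and 0.45, and without DKO replicates 1 or 2 it was 1.39 and 1.87. Without DKO replicate 3 it was -0.032 (limma adjusted p = 0.997), the opposite direction.

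Within a genotype, both metallothioneins varied more than nearly every other gene. The highest library was 20.7 times the lowest for Mt1 among p21TKO and 4.19 times among DKO. For Mt2 these ratios were 48.8 among p21TKO and 18.9 among DKO. The pooled within-genotype SD of log2(FPKM + 1) was 1.77 for Mt1 and 2.43 for Mt2, larger than that of 98.9% and 99.5% of the tested genes. Among libraries with Ddx3y reads the p21TKO minus DKO log2 difference was -0.68 for Mt1 and -1.82 for Mt2, and among those without it was 2.43 for Mt1 and 2.05 for Mt2. Each of those comparisons sets 1 library against 2 and has no test. With Ddx3y presence as a term, the differences were 0.87 for Mt1 (limma adjusted p = 0.777) and 0.12 for Mt2 (limma adjusted p = 0.98).

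The share of Mt2 relative to Mt1 did not follow genotype. Mt2 FPKM were 1.10, 6.15 and 1.57% of Mt1 FPKM in p21TKO replicates 1 to 3, against 3.93, 5.89 and 1.30% in DKO replicates 1 to 3. Each group held libraries with a low share and libraries with a high one, and the groups overlapped. The mean log2 ratio was lower in p21TKO by 0.50 (-0.50), with SDs of 1.31 in p21TKO and 1.13 in DKO (exact permutation test, two-sided p = 0.8, n = 3 each, where 0.1 is the smallest p possible). The difference was -0.00057 without p21TKO replicate 1 and -0.040 without DKO replicate 2, and -1.24 without p21TKO replicate 2 and -1.13 without DKO replicate 3. Without p21TKO replicate 3 it was -0.26, and without DKO replicate 1 it was -0.33. p21TKO replicate 3, with the highest Mt1, had only the second highest Mt2.

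**Figure D2:**
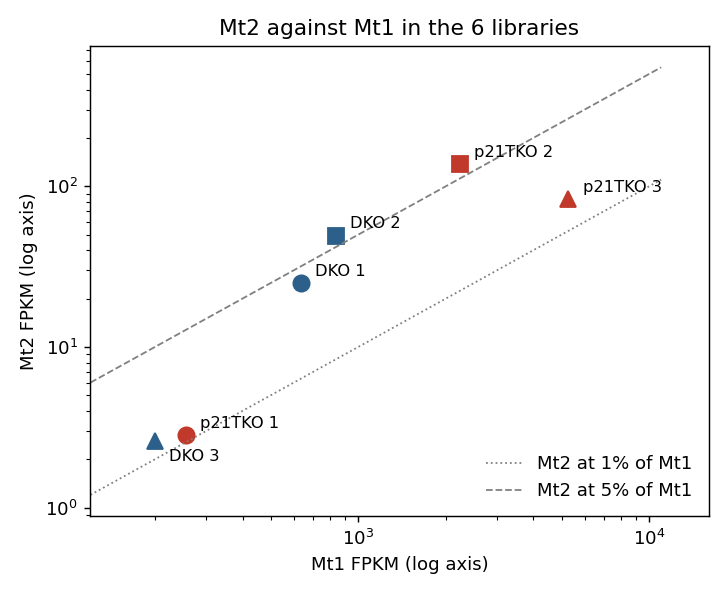
Mt2 FPKM against Mt1 FPKM on log axes, 1 labelled point per library, with grey lines where Mt2 would be 1% or 5% of Mt1. p21TKO replicate 2 and DKO replicates 1 and 2 lie near the upper line at 6.15, 3.93 and 5.89%, while p21TKO replicates 1 and 3 and DKO replicate 3 lie near the lower line at 1.10, 1.57 and 1.30%.

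The annotation limits how far Mt1 and Mt2 levels can be compared with each other. The exons of Gm45774, an antisense gene on the opposite strand, cover 432 of the 588 exonic bases of Mt2 in GENCODE M21 and leave 156 bases to Mt2 alone. With the strandedness of counting not stated, reads of the Mt2 transcript and of Gm45774 in the shared bases cannot be told apart. How such reads were counted is not stated either, and if they were left out, Mt2 levels and the Mt2 shares of Mt1 given above are understated. Gm45774 itself stood at 0.368, 0.441 and 0.416 FPKM in p21TKO replicates 1 to 3, against 0.328, 1.73 and 0.118 FPKM in DKO replicates 1 to 3. For Mt1, the length behind the FPKM was 1246 bases, the union of all annotated exons, whereas the spliced transcript Mt1-201 has 549 bases. Per spliced base Mt1 would thus be 2.27 times as high as its FPKM, and Mt2, with 588 bases against 511 for Mt2-201, 1.15 times. No other gene held a stretch of at least 75 bases that was 90% or more identical to the Mt1 transcript, and for Mt2 the 1 such gene was Gm45774. The other members of the metallothionein family were near absence. Mt3 had 0, 4 and 2 reads in p21TKO replicates 1 to 3 and 0 in the DKO libraries. Mt4 had 0 reads in every library. The level equal to 3 reads, the limit that a count of 0 allows for counting error alone, was 0.279 to 0.389 FPKM in p21TKO and 0.314 to 0.350 FPKM in DKO.

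Mtf1 (ENSMUSG00000028890, chromosome 4, 124802104 to 124849800), the gene for the zinc-sensing factor, was the steadiest member. It stood at 1.62, 1.57 and 1.64 FPKM in p21TKO replicates 1 to 3, against 1.64, 1.39 and 1.56 FPKM in DKO replicates 1 to 3. All 6 values lay close together and the groups overlapped. The difference was 0.047 on the log2 scale (SE 0.13, 95% interval -0.26 to 0.36, limma adjusted p = 0.911). Only 0.189% of tested genes had a smaller SD over the 6 libraries, on the log2(FPKM + 1) scale, which compresses low genes such as Mtf1. Reads of 721 of its 8907 exonic bases could also come from 1110065P20Rik on the opposite strand, at 5.29 to 7.60 FPKM in p21TKO and 3.94 to 6.96 FPKM in DKO.

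Slc30a1 (ENSMUSG00000037434, chromosome 1, 191906767 to 191913247), which encodes the zinc exporter ZnT1 of the cell surface and is a known MTF1 target, was close to the detection limit. It stood at 0.0985, 0.573 and 0.310 FPKM in p21TKO replicates 1 to 3, against 0.175, 0.106 and 0.172 FPKM in DKO replicates 1 to 3. p21TKO replicates 2 and 3, the libraries with the most Mt1, held the highest values, and p21TKO replicate 1 the lowest. The values rest on 10, 69 and 44 reads in p21TKO and 22, 12 and 20 reads in DKO. The means were 0.327 ± 0.238 FPKM in p21TKO and 0.151 ± 0.039 FPKM in DKO (SD, n = 3 each). Slc30a1 lay below the filter, and with no filter its log2 difference was 0.19 (limma adjusted p = 0.728). Without p21TKO replicate 2 the difference was 0.060, without p21TKO replicate 1 it was 0.32, and without any 1 of the other libraries it lay between 0.16 and 0.21.

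Slc30a10 (ENSMUSG00000026614, chromosome 1, 185454848 to 185468762) belongs to the ZnT family by sequence and is best known as a manganese exporter. It stood at 1.70, 4.71 and 1.69 FPKM in p21TKO replicates 1 to 3, against 2.24, 1.93 and 2.84 FPKM in DKO replicates 1 to 3. p21TKO replicate 2 was the highest library and the other p21TKO libraries were the lowest, so the DKO values lay inside the p21TKO range. These values came from 214 to 703 reads in p21TKO and 270 to 411 reads in DKO. The means were 2.70 ± 1.74 FPKM in p21TKO and 2.34 ± 0.465 FPKM in DKO (SD, n = 3 each), a log2 difference of 0.061 (SE 0.32, 95% interval -0.70 to 0.82, limma adjusted p = 0.956). Without p21TKO replicate 2 the difference was -0.30 (limma adjusted p = 0.673), without DKO replicate 2 it was -0.028, and without p21TKO replicates 1 or 3 it was 0.24 in both cases. Without DKO replicates 1 or 3 it was 0.044 and 0.17.

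Slc39a4 (ENSMUSG00000063354, chromosome 15, 76612383 to 76617384) encodes ZIP4, the importer that takes up dietary zinc in the intestine. It stood at 13.6, 13.998 and 6.94 FPKM in p21TKO replicates 1 to 3, against 14.8, 17.7 and 18.6 FPKM in DKO replicates 1 to 3. All 3 p21TKO values lay below all 3 DKO values, with p21TKO replicate 3 lowest and p21TKO replicates 1 and 2 just under DKO replicate 1. The read counts were 817, 998 and 583 in p21TKO and 1106, 1186 and 1282 in DKO. The means were 11.5 ± 3.96 FPKM in p21TKO and 17.0 ± 1.97 FPKM in DKO (SD, n = 3 each). The log2 difference of -0.58 did not pass (SE 0.29, 95% interval -1.27 to 0.11, limma adjusted p = 0.544). It was -0.39 among libraries with Ddx3y reads and -0.54 among those without. Since the groups did not overlap, any split had to give this direction, so the split adds nothing to it. Without p21TKO replicate 3 it was -0.28 (limma adjusted p = 0.935), and without p21TKO replicate 2 it was -0.74 (limma adjusted p = 0.672). Fabp2 and Vil1, which enterocytes express, stood at 16.4 to 57.3 and 0.0312 to 0.0727 FPKM in p21TKO and at 39.9 to 59.5 and 0.0117 to 0.0634 FPKM in DKO. Fabp2 is also expressed in liver, and Prss1 and Cdx2 were at 0 in all 6 libraries. Cela1, of the same intestinal and pancreatic list, was present in every library. It stood at 17.5, 2.61 and 3.09 FPKM in p21TKO replicates 1 to 3, against 4.58, 4.66 and 7.30 FPKM in DKO replicates 1 to 3. The part of other tissue in Slc39a4 was not tested.

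**Figure D3:**
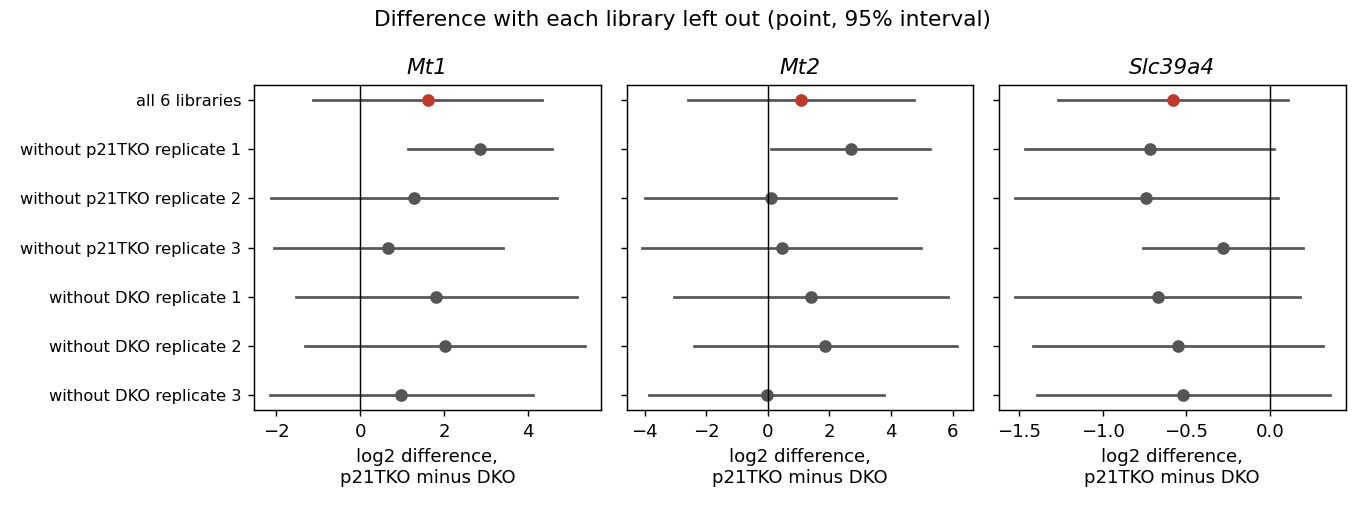
Log2 differences, p21TKO minus DKO, on log2(FPKM + 1) for Mt1, Mt2 and Slc39a4 with all 6 libraries (red) and with each library left out (grey), bars showing 95% intervals from limma. The Mt1 difference ranges from 0.67 to 2.85 and the Mt2 difference from -0.032 to 2.68, both highest without p21TKO replicate 1, and the Slc39a4 difference stays between -0.74 and -0.28.

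Among the wider zinc transporter families, no gene was called in either direction. Of 10 ZnT genes, 5 reached the filter, and limma called 0 higher and 0 lower, with 0 at an unadjusted p under 0.05 by limma and 0 by voom. Their values were higher for 4 and lower for 1, with a median log2 difference of 0.033, beside 0.0016 over all tested genes. Of 14 ZIP genes, 9 reached the filter, and limma called 0 higher and 0 lower, with 0 at an unadjusted p under 0.05 by limma and 0 by voom. Their values were higher for 4 and lower for 5, with a median of -0.048. Slc30a4 had 0 reads in all 6 libraries, and the other genes below the filter were present at low levels in at least 1 library.

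The most abundant transporters were the importers Slc39a1 and Slc39a14. Slc39a14 encodes ZIP14, which carries zinc, iron and manganese into hepatocytes and is known to be induced by IL-6. It stood at 15.1, 34.6 and 45.7 FPKM in p21TKO replicates 1 to 3, against 32.5, 19.1 and 25.8 FPKM in DKO replicates 1 to 3. p21TKO replicates 2 and 3 were the highest and p21TKO replicate 1 the lowest, and the groups overlapped (log2 difference 0.19, SE 0.43, limma adjusted p = 0.889). Slc39a1, a cell-surface importer (ZIP1), stood at 21.04, 39.3 and 39.95 FPKM in p21TKO and 25.7, 22.7 and 35.0 FPKM in DKO, with p21TKO replicate 1 again the lowest. Its log2 difference of 0.23 did not pass (limma adjusted p = 0.812).

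The other transporters had lower levels. Slc30a5, a Golgi exporter, averaged 7.80 ± 1.62 FPKM in p21TKO and 6.47 ± 1.27 FPKM in DKO. Slc30a9 averaged 4.38 ± 1.24 FPKM in p21TKO and 5.29 ± 0.497 FPKM in DKO. Slc30a6, which pairs with Slc30a5, averaged 3.24 ± 0.855 FPKM in p21TKO and 3.13 ± 0.722 FPKM in DKO (SD, n = 3 each for all transporters). Slc30a7 differed least of the ZnT genes, at 1.85 ± 0.130 FPKM in p21TKO and 1.82 ± 0.226 FPKM in DKO. Among the importers, Slc39a8, the close relative of Slc39a14, averaged 2.09 ± 0.513 FPKM in p21TKO and 2.37 ± 0.665 FPKM in DKO. The means of Slc39a11, Slc39a9, Slc39a3 and Slc39a13 lay between 1.86 and 6.16 FPKM in p21TKO and between 1.96 and 6.41 FPKM in DKO. Slc39a7, which releases zinc from the endoplasmic reticulum, stood at 0.52, 2.73 and 2.40 FPKM in p21TKO, against 1.01, 0.611 and 1.83 FPKM in DKO. Its groups overlapped, with the low values in p21TKO replicate 1 and DKO replicate 2, and its log2 difference of 0.36 did not pass (limma adjusted p = 0.753).

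**Figure D4:**
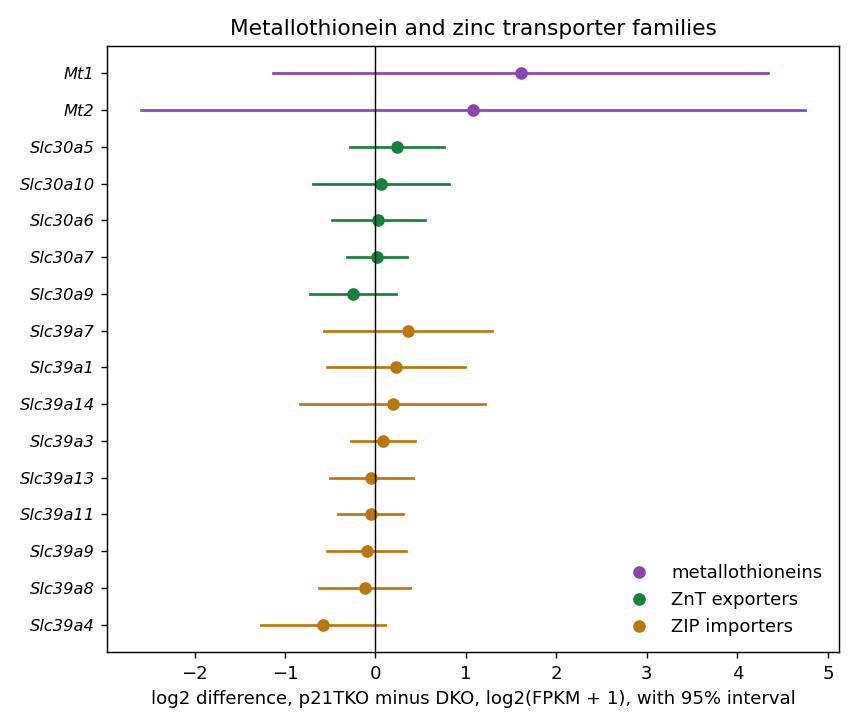
Log2 differences, p21TKO minus DKO, on log2(FPKM + 1) with 95% intervals from limma, for the tested metallothionein, ZnT and ZIP genes. Every interval spans 0, the intervals of Mt1 (-1.13 to 4.34) and Mt2 (-2.60 to 4.75) are the widest, and Slc39a4 at -0.58 is the lowest.

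Genes of the known inducers of metallothioneins were set beside Mt1 and Mt2. For each list, the median over genes of log2(FPKM + 1), after subtracting each gene's mean over the libraries, gave 1 level per library. The metallothionein levels were -2.18, 1.97 and 2.23 in p21TKO replicates 1 to 3, against -0.14, 0.53 and -2.40 in DKO replicates 1 to 3. Those of the acute phase and IL-6/STAT3 list were -1.31, 1.93 and 1.27 in p21TKO and -0.38, -0.46 and -0.68 in DKO. Both lists were thus high in p21TKO replicates 2 and 3 and low in p21TKO replicate 1, but DKO replicate 3, lowest for metallothioneins, lay close to the other DKO libraries for the acute phase. The acute phase genes summed to 9301 to 73227 FPKM in p21TKO and 14116 to 16373 FPKM in DKO, and of 17 tested genes limma called 0, with 0 at an unadjusted p under 0.05 by limma and 0 by voom. Of these 17, 16 had higher values in p21TKO and 1 lower, with a median log2 difference of 0.98. Over all tested genes, 50.2% had higher values in p21TKO, with a median of 0.0016. The 16 are not independent, since the list was high in p21TKO replicates 2 and 3 and below every DKO library in p21TKO replicate 1. Hp, haptoglobin, stood at 2402, 18199 and 6597 FPKM in p21TKO and at 2606, 4514 and 2723 FPKM in DKO. Hamp, the iron hormone hepcidin, stood at 1616, 2032 and 11179 FPKM in p21TKO and at 3021, 2628 and 1609 FPKM in DKO, so that its highest library was, as for Mt1, p21TKO replicate 3. The part of the acute phase in the metallothionein levels was not tested.

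Genes of the glucocorticoid and oxidative stress lists went in both directions, so the list levels average over them. Limma called 0 of 10 genes in each list, with 1 glucocorticoid-responsive gene and 0 NRF2 targets at an unadjusted p under 0.05, by limma as by voom. Of all tested genes, 9.38% had an unadjusted p under 0.05 by limma. Levels of the 10 glucocorticoid-responsive genes lay between -0.066 and 0.22 in p21TKO and between -0.28 and 0.087 in DKO, and those of the 10 tested NRF2 targets between -0.13 and 0.23 in p21TKO and between -0.19 and 0.10 in DKO. Tat, tyrosine aminotransferase, stood at 1260, 1260 and 1056 FPKM in p21TKO and at 735, 905 and 832 FPKM in DKO, without overlap (log2 difference 0.53, limma adjusted p = 0.568). In all, 4 of the 10 glucocorticoid-responsive genes had groups that did not overlap, 3 higher and 1 lower in p21TKO, beside 15.4% of all tested genes. Dusp1, a phosphatase gene also induced by stress, stood at 81.2, 8.99 and 5.73 FPKM in p21TKO and at 18.7, 85.5 and 12.9 FPKM in DKO. Tsc22d3, a glucocorticoid-induced leucine zipper gene, stood at 64.0, 27.5 and 12.1 FPKM in p21TKO and at 37.7, 55.5 and 36.6 FPKM in DKO, and was therefore lowest where Mt1 was highest. Gclc, which makes glutathione and is a known MTF1 target, stood at 66.2, 42.0 and 25.45 FPKM in p21TKO and at 36.7, 68.7 and 59.8 FPKM in DKO. Among copper genes, 9 of 12 were tested and limma called 0. Their values were higher in p21TKO for 4 and lower for 5, with a median log2 difference of -0.12. Cp (ceruloplasmin) averaged 231 ± 142 FPKM in p21TKO and 108 ± 16.03 FPKM in DKO (SD, n = 3 each, limma adjusted p = 0.593). Its groups overlapped, with p21TKO replicate 1 the lowest library at 87.6 FPKM. Atox1 averaged 221 FPKM in p21TKO and 180 FPKM in DKO, Sod1 196 and 184 FPKM, and Ccs 68.4 and 92.7 FPKM.

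Summed markers of neutrophils, Kupffer cells, endothelium and stellate cells were highest in p21TKO replicates 2 and 3, and those of cholangiocytes were not. The 9 neutrophil markers summed to 24.5, 551 and 220 FPKM in p21TKO replicates 1 to 3, against 10.3, 28.7 and 12.4 FPKM in DKO replicates 1 to 3. The 9 Kupffer cell markers summed to 36.9, 329.5 and 181 FPKM in p21TKO and to 113.5, 76.7 and 48.4 FPKM in DKO. Within that list, Clec4f and Cd5l stood at 11.2 and 15.8 FPKM in p21TKO replicate 3, below the 20.1 and 24.9 FPKM of DKO replicate 1. The 8 endothelial markers summed to 8.37, 75.5 and 38.4 FPKM in p21TKO and to 22.0, 12.3 and 14.3 FPKM in DKO. All markers of these 3 lists were above 0 in at least 1 library. Limma called 0 of the 6 neutrophil, 9 Kupffer cell and 8 endothelial markers tested. At an unadjusted p under 0.05, limma picked 4 neutrophil markers and voom 1, and both picked 0 Kupffer cell and 0 endothelial markers. Of all tested genes, limma picked 9.38% at this threshold. The 8 stellate and fibroblast markers summed to 26.3, 37.99 and 35.1 FPKM in p21TKO and to 23.8, 14.5 and 15.1 FPKM in DKO. Dcn, the most abundant of them, stood at 13.6, 29.97 and 31.1 FPKM in p21TKO and at 17.2, 7.28 and 10.2 FPKM in DKO. The list levels, medians over the tested genes, were instead highest in p21TKO replicate 1. They were 0.41, 0.34 and -0.22 in p21TKO replicates 1 to 3, against 0.096, -0.098 and -0.38 in DKO replicates 1 to 3. Limma called 0 of the 5 stellate and fibroblast markers tested, with 2 at an unadjusted p under 0.05. The 6 cholangiocyte markers summed to 19.95, 28.5 and 6.98 FPKM in p21TKO and to 7.28, 18.5 and 7.06 FPKM in DKO, with p21TKO replicate 3 the lowest library. This sum follows Spp1, at 17.1, 22.0 and 5.49 FPKM in p21TKO and 6.62, 17.6 and 6.53 FPKM in DKO. Krt19 and Sox9, below the filter, went the other way in p21TKO replicate 3. Krt19 stood at 1.31, 3.03 and 0.378 FPKM against 0.0673, 0.326 and 0.170 FPKM, and Sox9 at 0.987, 1.31 and 0.733 FPKM against 0.312, 0.450 and 0.239 FPKM. Tspan8 overlapped. In bulk liver, fewer cells of a type and less RNA per cell cannot be told apart, and the part of these cells in the metallothionein values was not tested.

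**Figure D5:**
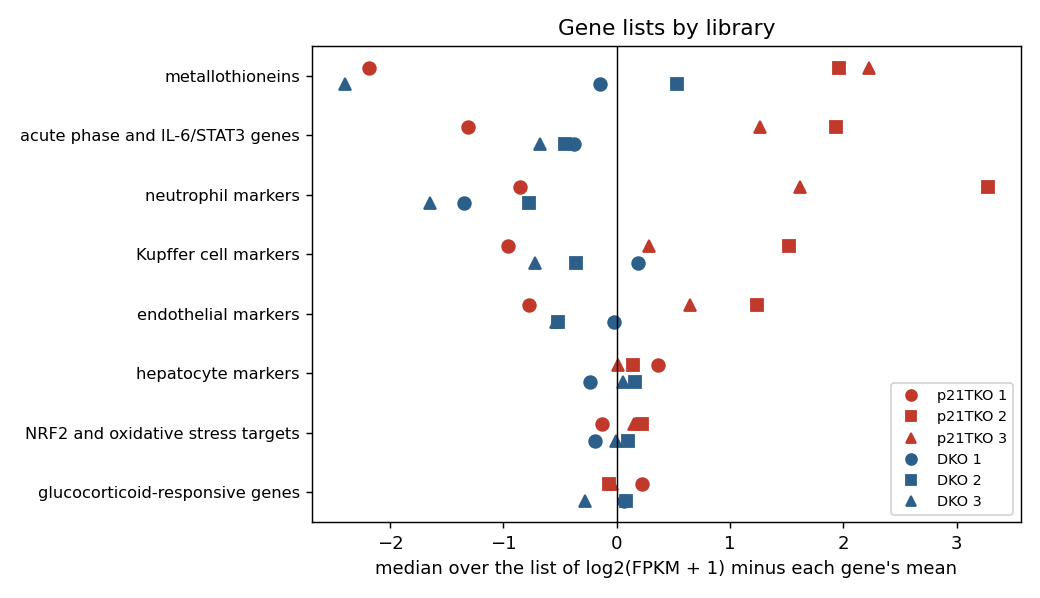
Level of each gene list in each library, as the median over its tested genes of log2(FPKM + 1) minus the gene's mean, p21TKO in red above DKO in blue, with the marker shape giving the replicate. Metallothioneins reach 1.97 and 2.23 in p21TKO replicates 2 and 3, which are also highest for the acute phase (1.93 and 1.27) and neutrophil (3.28 and 1.62) lists, and stand at -2.18 in p21TKO replicate 1 and -2.40 in DKO replicate 3.

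The pattern of each member over the 6 libraries was compared with that of all named genes at a mean of 1 FPKM or more, by Pearson's r of log2(FPKM + 1), as a description. Mt1 and Mt2 had r = 0.91 with each other over the 6 libraries. Of the 8574 genes compared with Mt1, 25 reached r of 0.95 or more, led by Fcer1g (r = 0.995), Tln1 (r = 0.991) and Mcm7 (r = 0.989). Fcer1g, the Fc receptor gamma chain of myeloid cells, stood at 5.20, 18.8 and 24.8 FPKM in p21TKO replicates 1 to 3, against 9.67, 10.6 and 4.99 FPKM in DKO replicates 1 to 3. For Mt2, 6 genes did so, led by Cnn3, Cetn2 and Serpina3g (r from 0.980 to 0.987). Slc30a10 was closest to Pcx, the pyruvate carboxylase gene (r = 0.990), Cgn (r = 0.989) and Tfr2 (r = 0.983), and Slc39a4 to Mrtfb (r = 0.991), Nacc2 (r = 0.988) and Ubr2 (r = 0.986). Slc30a1 was closest to Ahcy (r = 0.998), Gimap9 (r = 0.997) and Rnf114 (r = 0.995). Mtf1, whose range was narrow, was closest to the importer Slc39a3 (r = 0.968), Ing5 (r = 0.967) and Tnfrsf11b (r = 0.965). Over the 6 members, between 0.0583 and 1.32% of the genes compared reached r of 0.95 or more. The same 6 libraries stand behind every r.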

How the data were processed

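PolyA RNA of 6 mouse liver libraries, 3 per genotype, was measured. The authors' deposited values for 55573 genes are FPKM. Per the submitters' processing notes, the tools were DESeq2 1.20.0, featureCounts 1.5.0-p3, HISAT2 2.0.5, CASAVA 1.8 and fastp, listed without roles. The notes give human builds beside mouse gene identifiers, so they do not settle the build. Coordinates are from GENCODE M21 (GRCm38), matched by identifier for 55480 genes. FPKM times M21 exon length gave whole reads within 0.02 for 99.7% of genes in all 6 libraries. The lengths behind the FPKM were thus largely those of a mouse annotation. For Slc30a10 whole reads needed a length of 6508 bases in place of 5836.

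For genes at a mean of at least 1 FPKM, limma 3.58.1 in R 4.3.3 compared log2(FPKM + 1) in a two-sided test with a variance trend. This scale understates changes of low genes, and p-values were adjusted over all 9538 genes. The fit was tested on simulated data. Near-identical copies were sought with BLAST 2.17.0, the exact test used scipy 1.17.1 in Python 3.11.15, and figures matplotlib 3.10.9. Members, lists and tests were chosen with earlier results of these data known. Named genes were the 6 members, family genes at 1 FPKM or more, the 4 most abundant genes of each other list, the 3 genes most like each member, sex-linked genes and Cdkn1a. Not all of them are printed, and Mt3, Mt4, Slc30a4, Prss1, Cdx2, Gm45774 and 1110065P20Rik were named after their values were seen. Alternatives were the pseudocount, filter, scaling, variance model, a replicate block, a Ddx3y term, voom on recovered reads and leaving out each library.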

Additional observations from a re-analysis of the deposited data

Results flagged for a closer look

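Slc30a1 differed in opposite directions in the 2 kinds of library. With Ddx3y reads, p21TKO replicate 1 lay below both DKO libraries (log2 difference -0.052), and without them p21TKO replicates 2 and 3 lay above DKO replicate 1 (0.29). The first difference rests on 10 reads in p21TKO and on 12 and 20 reads in DKO, and whether the differences depart from each other was not tested. A change of sign was not particular to Slc30a1. With and without Ddx3y reads, the differences were -0.68 and 2.43 for Mt1, -1.82 and 2.05 for Mt2, -0.31 and 0.27 for Slc30a10, and 0.083 and -0.019 for Mtf1. Only Slc39a4 kept its sign. Each comparison sets 1 library against 2, and the share of all genes that change sign is not given here.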

How the results depend on the processing

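No member was called under any of the 17 alternatives run. Mt1 and Mt2 had an unadjusted p under 0.05 without p21TKO replicate 1, and 0 members did so in the other 16. Without that library 2392 of 9579 tested genes did so by limma, beside 895 of 9538 with all 6 libraries. Mt1, Mtf1 and Slc39a4 kept their direction in all alternatives in which they were tested, with Mt1 between 0.67 and 2.85 when a library was left out. For Slc39a4, whose groups did not overlap, leaving out a library could not change the direction. With single libraries left out, Mt2 lay between -0.032 and 2.68 and reversed without DKO replicate 3. Slc30a10 lay between -0.30 and 0.24 and reversed with the Ddx3y term (-0.020) and without p21TKO replicate 2 or DKO replicate 2. Slc30a1 gave 0.61 with a pseudocount of 0.1, where the lower pseudocount compresses low genes less. The Mt2 to Mt1 log2 ratio difference stayed below 0 in all 8 alternatives, but lay between -1.24 and -0.00057 with single libraries left out. Between 1 and 4 members had groups that did not overlap when a library was left out, the 4 without p21TKO replicate 1, where 44.6% of tested genes did so.

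Over all genes, 3 were called higher and 4 lower. The counts were 5 and 5 with a pseudocount of 0.1, 2 and 2 with a pseudocount of 5, 0 and 1 with no filter, 2 and 2 at a mean of 5 FPKM, and 0 and 1 by voom on recovered reads. Leaving out a library gave 0 to 233 higher and 1 to 273 lower, both highest without p21TKO replicate 1, while each of the other 5 libraries left out gave 0 to 2 higher and 1 to 3 lower. The cause was not tested. A replicate block gave 0 higher and 0 lower and called no member. Same-numbered libraries did not deviate together (r of deviations -0.44, -0.49 and -0.072). In every same-numbered pair, however, only 1 of the libraries had Ddx3y reads. These r values therefore cannot decide whether the numbers pair the libraries. Depth limits Slc30a1 most, at 10 to 69 reads in p21TKO and 12 to 22 reads in DKO.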

Other observations

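The lowest metallothionein levels crossed the genotypes. p21TKO replicate 1 and DKO replicate 3 had 2.81 and 2.60 FPKM of Mt2 and 255 and 200 FPKM of Mt1, and both carried Ddx3y reads, as did DKO replicate 2, which had 49.2 FPKM of Mt2 and 837 FPKM of Mt1. Red cell transcripts were not ordered in the same way: the 5 erythroid genes summed to 856, 596 and 20.3 FPKM in p21TKO replicates 1 to 3, against 119, 669 and 246 FPKM in DKO replicates 1 to 3.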
